A study of Danio rerio with 2 samples.

Results

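The circadian clock genes per1a, per1b, per2, per3, nr1d1, nfil3, tefa and clocka were followed in zebrafish liver after arsenate exposure. They were chosen by gene symbol from a list made with their values in these libraries known. All 8 were found among 17963 genes, a count that includes transcripts matched to no symbol. Because that choice rests on the same comparison, the differences below are descriptions and carry no test.

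Liver RNA came from wild-type zebrafish aged 3 months. The arsenate group received sodium arsenate for 96 h in tanks whose water was renewed daily, and the control group was kept in water. Each group is 1 library of 3' SAGE tags, short sequences counted from the 3' end of transcripts, with 4420935 tags for arsenate and 2592679 for water. No difference below therefore has a replicate check, and the labels do not say how many fish were pooled. Neither the hour of sampling nor the light or feeding schedule is given in the sources used here. A difference in these between the libraries cannot be told apart from the treatment.

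The vertebrate clock is a feedback loop of transcription. CLOCK and BMAL proteins bind E-box elements and switch on period, cryptochrome and Rev-erb genes. PER and CRY proteins then repress CLOCK and BMAL, while the nuclear receptors of the Rev-erb group repress, and those of the ROR group activate, the bmal genes. A further arm works through D-box elements, which PAR bZIP factors such as TEF activate and NFIL3 represses. In zebrafish the clock runs in most tissues, light acts on peripheral cells directly, and per2, cry1a and tefa respond to light. Period and Rev-erb genes of zebrafish are highest around morning and clock and bmal genes around evening, and in mammals Nfil3 runs opposite to the PAR bZIP genes.

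Levels are given in RPM, the tags of a gene per 1000000 tags of its library. A single tag therefore counts for 0.226 RPM after arsenate and 0.386 RPM in water, and values given as a pair are in that order. Ratios are followed by their exact 95% interval, which covers the counting error of independent tags only. A gene that both libraries together gave at least 10 tags is called tested, and it was called higher or lower when the ratio of RPM + 1 reached 2 or 0.5. By this rule 1222 of 7839 genes tested (15.6%) were higher in the arsenate library and 1125 (14.4%) lower.

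Of the 8 clock genes, per1b and nr1d1 were lower in the arsenate library, nfil3 was higher, and tefa was neither. The other 4 (per1a, per2, per3 and clocka) held fewer than 10 tags and were not tested. The shares of all genes past the rule were 14.4% lower and 15.6% higher, as above, and nothing is read from the members' counts against them because the same comparison chose the members. The median log2 ratio of the 4 tested was -0.72, against 0.03 for all genes tested.

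Among the period genes, whose proteins are the repressors of the loop, per1b carried nearly all of the signal. It stood at 17.4 RPM (77 tags) after arsenate and 59.0 RPM (153 tags) in water. Its level was 3.39-fold lower in the arsenate library (2.56 to 4.52). The counting intervals of the levels were 13.7 to 21.8 RPM and 50.03 to 69.1 RPM. Of all genes tested, 8.23% had a lower ratio than per1b. The paralogue per1a had 1 tag after arsenate and 2 in water, per2 had 2 and 3, and per3 had 0 and 2. At these counts a difference was not detectable: the interval of the per2 ratio ran from 0.0327 to 3.41 and that of per1a from 0.00497 to 5.63. For per3, the exact 95% interval of the 0 tags in the arsenate library reached 0.834 RPM, above the 0.771 RPM of the water library. Whether tags of per1a and per1b were divided between these paralogues in the authors' mapping was not tested.

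The cryptochrome genes, whose products act with PER, were measured beside them. The light-responsive cry1a stood at 3.62 RPM against 12.3 RPM, 3.41-fold lower in the arsenate library (1.82 to 6.66), from 16 and 32 tags. Its sister gene cry1b held 8 tags in each library, and its ratio of 0.586 had an interval of 0.192 to 1.79. The genes cry2 and cry3a had at most 4 tags in a library. Here and below, a listed gene is said to have a row when its symbol matched one. An unmatched gene may still be among the rows without a symbol. Of 10 repressor genes listed, 8 had a row, 3 were tested, 2 were lower and none was higher, beside 14.4% lower and 15.6% higher over all genes. The summed level of the 8 was 24.7 RPM after arsenate and 77.1 RPM in water.

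**Figure D1:**
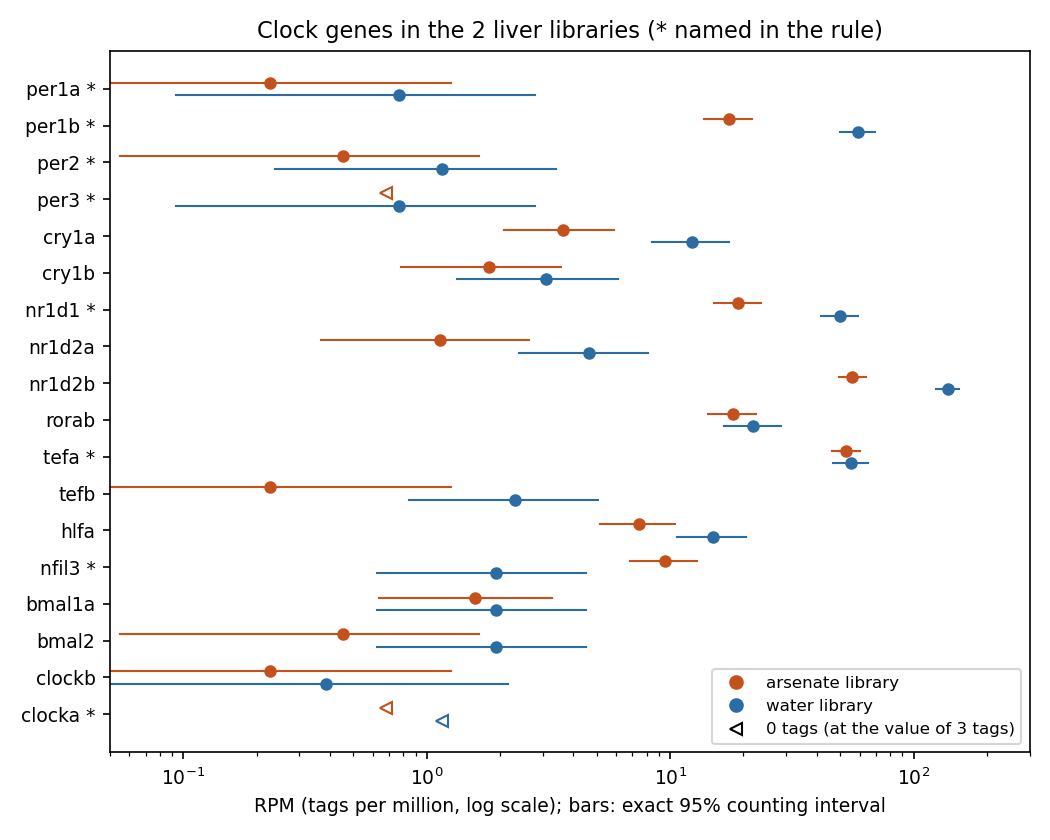
Levels of 18 clock genes in RPM on a log scale, with orange points for the arsenate library, blue points for the water library and bars for the exact 95% counting interval. Open triangles mark 0 tags, drawn at the value of 3 tags. The intervals of the 2 libraries are apart for per1b, cry1a, nr1d1, nr1d2b, hlfa and nfil3, and overlap for tefa. How many of all genes have intervals apart was not counted. The genes were chosen with these values known, so nothing is read from the separation.

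The nuclear receptor gene nr1d1 encodes Rev-erb alpha, a repressor of bmal genes. It stood at 19.0 RPM (84 tags) after arsenate and 49.8 RPM (129 tags) in water. That is 2.62-fold lower in the arsenate library (1.97 to 3.49), and 11.8% of genes tested had a lower ratio. The related receptor genes nr1d2b and nr1d2a, of the Rev-erb beta type, lay in the same direction. For nr1d2b the levels were 56.1 RPM and 138 RPM, 2.46-fold lower (2.09 to 2.91), from 248 and 358 tags. For nr1d2a only 5 and 12 tags were counted, a ratio of 0.244 with an interval of 0.0674 to 0.745. The 3 Rev-erb genes thus shared a direction. The receptor gene rorab, of the activating ROR group, also had a ratio below 1 (0.823), but its interval included 1 (0.579 to 1.18). It was within 2-fold, at 18.1 RPM against 22.0 RPM. Of 10 receptor genes listed, 4 had a row and all 4 were tested, of which 3 were lower and none higher. The shares over all genes were 14.4% lower and 15.6% higher.

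The D-box arm held the clock gene that was higher. The repressor gene nfil3 stood at 9.50 RPM (42 tags) after arsenate and 1.93 RPM (5 tags) in water. Its level was 4.93-fold higher in the arsenate library, and the interval was wide (1.95 to 15.95) because of the 5 tags. Of all genes tested, 5.15% had a higher ratio. The activator gene tefa stood at 52.9 RPM (234 tags) and 55.2 RPM (143 tags). Its ratio was 0.960 (0.776 to 1.19), which turned to 1.11 when the libraries were scaled without their 10 most abundant genes, so no direction is given. Its paralogue tefb had 1 tag after arsenate and 6 in water. The further PAR bZIP gene hlfa was at 7.46 RPM and 15.04 RPM, a ratio of 0.496 (0.302 to 0.810). With 1 added to each level the ratio of hlfa was 0.528, just outside the rule, whereas nr1d2b, at 0.411, was the core clock gene closest inside it. Of 12 genes listed for this arm 4 had a row, and the other nfil3 genes and dbp genes were not analysed here.

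**Figure D2:**
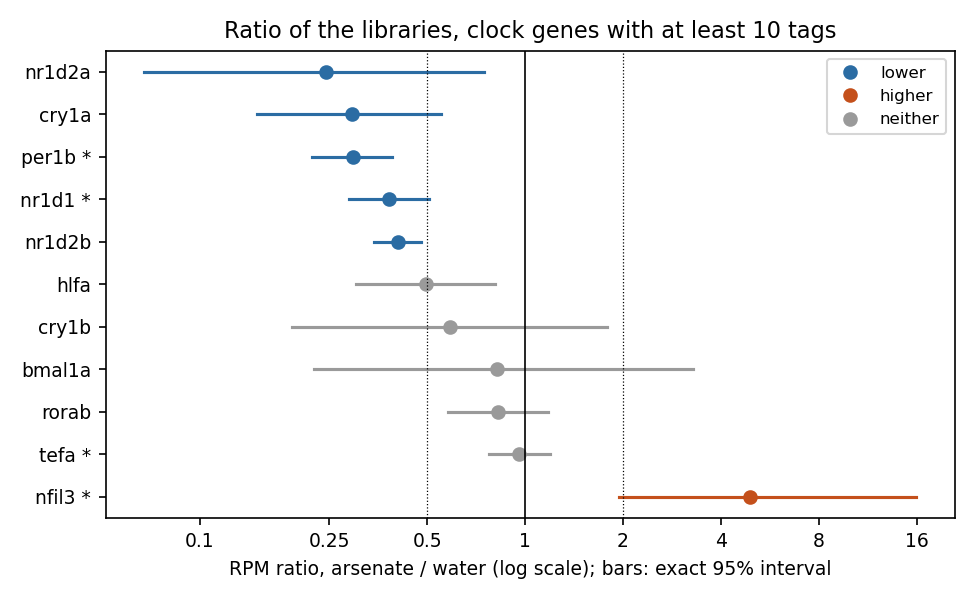
RPM ratio of arsenate over water on a log scale for the 11 core clock genes with at least 10 tags, with exact 95% intervals as bars. Dotted lines mark ratios of 0.5 and 2. Points are coloured by the call on RPM + 1: 5 genes are lower, nfil3 is higher and 5 are neither, and the interval of nfil3 is among the wider ones. Over all genes tested, 14.4% are lower and 15.6% higher.

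The activators of the loop were near the limit of the libraries. No tag was listed for clocka in either library. The limit of 3 tags, used for a count of 0, stands at 0.679 RPM after arsenate and 1.16 RPM in water. No tag was listed for bmal1b either. The gene clockb had 1 tag in each library, npas2, which can replace CLOCK, had 1 and 0, and bmal2 had 2 and 5. With 7 and 5 tags, bmal1a was the activator gene with the most tags, at 1.58 RPM and 1.93 RPM, and its ratio of 0.821 had an interval of 0.224 to 3.28. All 6 activator genes together held 11 tags in each library, or 2.49 RPM and 4.24 RPM, with an interval of the ratio from 0.231 to 1.49. A difference in this arm was not detectable at these counts.

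Ratios between a pair of genes within a library do not depend on how the libraries are scaled. For each tag of tefa, the arsenate library held 0.179 tags of nfil3 and the water library 0.03497, a 5.12-fold difference (1.96 to 17.0). For each tag of tefa per1b had 0.329 tags after arsenate and 1.07 in water, which differ by 3.24-fold (2.27 to 4.66) in the other direction. The pair nr1d1 and per1b, by contrast, stood at 1.09 and 0.843 tags of nr1d1 per tag of per1b, and the interval of this 1.29-fold difference included 1 (0.862 to 1.94). The pair nr1d2b and nr1d1 differed by 1.06-fold (0.764 to 1.48). Between nfil3 and per1b the shift was 16.5-fold (6.20 to 55.7). Of the core clock genes tested, these had the highest and the lowest ratio of RPM + 1. The genes of all these pairs were chosen with their values known, so the shifts are descriptions.

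By phase, the genes taken as morning genes and those taken as evening genes differed in how well they were measured. Of 13 morning genes, 11 had a row and 7 were tested. Of these, 5 were lower in the arsenate library (per1b, nr1d1, nr1d2a, nr1d2b and cry1a), none was higher, and tefa and hlfa were neither. The shares over all genes were 14.4% lower and 15.6% higher. The 7 tested had a median log2 ratio of -1.39, against 0.03 for all genes. The summed level of the 11 was 159 RPM after arsenate and 339 RPM in water. Of 7 evening genes only nfil3 and bmal1a were tested, the first higher and the second neither. The place of nfil3 among evening genes is taken from mammals, and without it the evening genes rest on the few tags of the activators. The phases were assigned with these values known, so the contrast between them is a description. Since the hour of sampling is not given and each group is 1 library, clock phase and treatment cannot be told apart.

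**Figure D3:**
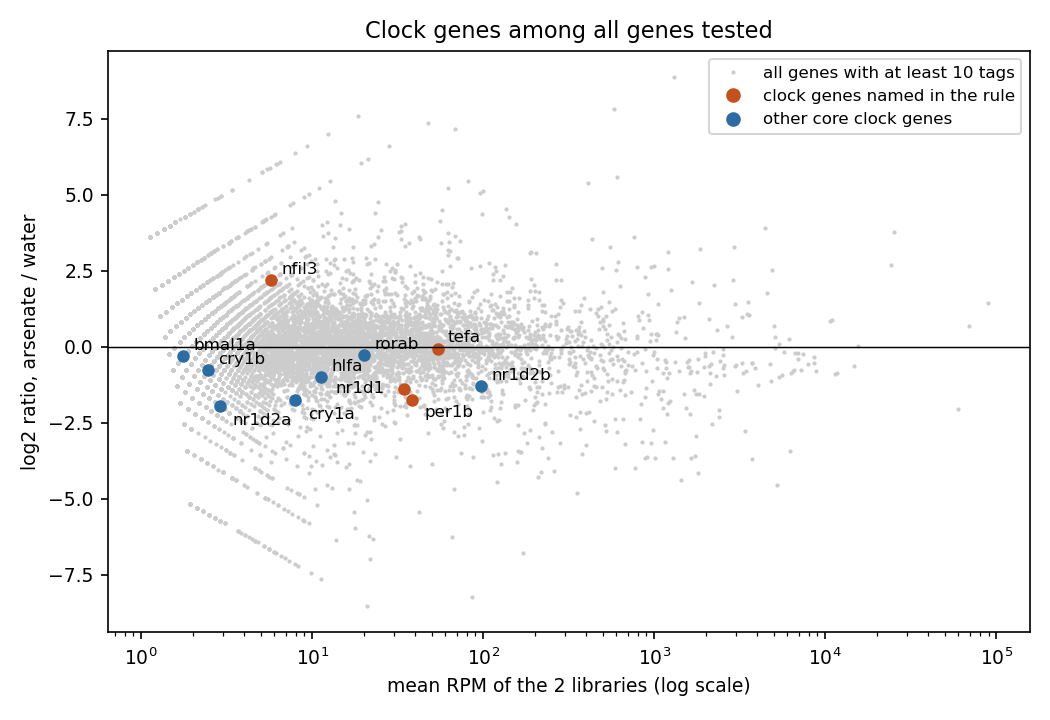
Log2 ratio of arsenate over water (0.5 tags added) against mean RPM on a log scale, for the 7839 genes with at least 10 tags in grey. Orange points are the 4 tested clock genes named in the rule and blue points the other 7 core clock genes. All but nfil3 lie below 0 and inside the cloud of all genes, of which 48.7% have a ratio below 1. The clock genes were chosen with these values known, so nothing is read from the side they lie on. At -0.06, tefa turns above 0 under TMM scaling and without the 10 most abundant genes.

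Of 23 genes listed as modifiers of clock proteins, 12 had a row and 8 were tested: 1 was lower, none higher and 7 neither, with a median log2 ratio of -0.40. With 14.4% of all genes lower, 1 of 8 is near the background and is not a result about the list. The one that was lower was fbxw11a, which encodes an F-box protein of ubiquitin ligases that mark PER for degradation, at 8.14 RPM against 23.1 RPM (2.84-fold, 1.85 to 4.42). The casein kinase genes csnk1db and csnk1da, whose products phosphorylate PER, had ratios of 0.699 (0.562 to 0.871) and 0.829 (0.585 to 1.18). The E-box repressor gene bhlhe40 was at 17.4 RPM against 17.0 RPM. The deubiquitinase gene usp2a had 0 tags against 5, fewer than 10 together, so it was not tested. The interval of its ratio reached up to 0.640. It was chosen for mention after its values were seen.

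Of 11 genes listed as responding to light, 10 had a row and 7 were tested. Of these, cry1a alone was called lower and none higher, and 4 had a ratio below 1. The shares over all genes were 14.4% lower and 15.6% higher, with 48.7% at a ratio below 1. The counts lower and below 1 are near these shares and are not a result about the list. The DNA damage recognition gene ddb2 was at 15.2 RPM against 15.8 RPM. The chromatin protein gene hmgb1a was at 147 RPM against 89.5 RPM, a ratio of 1.64 (1.41 to 1.91). The median log2 ratio of the tested genes was -0.06 and turned to 0.15 under the scaling without the 10 most abundant genes.

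Of 26 liver genes taken as clock outputs from knowledge of mammals, 16 had a row and 12 were tested: 2 were higher, 2 lower and 8 neither, with a median log2 ratio of -0.31. These counts are near the shares over all genes, 15.6% higher and 14.4% lower, and are not a result about the list. The gene alas1, for the rate-limiting enzyme of heme synthesis in liver, stood at 1068 RPM against 154 RPM, a ratio of 6.92 (6.25 to 7.69). The carboxylesterase gene ces2a stood at 438 RPM against 96.04 RPM, a ratio of 4.56 (3.998 to 5.23). The lower genes were pck1, for a key enzyme of gluconeogenesis, at 12.2 RPM against 59.0 RPM, and cyp7a1, for the rate-limiting enzyme of bile acid synthesis, with 2 tags against 38. The glucose transporter gene slc2a2 was neither, at 292 RPM against 518 RPM.

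Glucocorticoid hormones act on peripheral clocks. Of 19 of their target genes and partners listed, 17 had a row and 14 were tested: 6 were lower, 2 higher and 6 neither, with a median log2 ratio of -0.94, beside 14.4% lower and 15.6% higher over all genes. The count of lower genes was 5 with TMM scaling, 4 without the 10 most abundant genes and 3 at 3-fold. All 7839 genes tested gave 1033, 927 and 536 lower under these settings. The count was 8 at 1.5-fold and 7 with 0.1 added to each level in place of 1. All genes then gave 1913 and 1348 lower. The Krüppel-like factor gene klf9, which is induced by glucocorticoids and oscillates with the clock in mammals, was at 7.01 RPM against 58.2 RPM, 8.31-fold lower (5.61 to 12.65), from 31 and 151 tags. The receptor chaperone gene fkbp5 was 2.86-fold lower (2.47 to 3.32), the leucine zipper gene tsc22d3 2.19-fold lower (2.03 to 2.37), and the tyrosine breakdown gene tat had a ratio of 0.477 (0.412 to 0.552). Without the 10 most abundant genes the ratios of RPM + 1 were 0.531 for tsc22d3 and 0.557 for tat, which ended both calls, and tat lost its call with TMM scaling too (0.509). The gene pck1 belongs to this list as well, and zbtb16a had 2 tags against 9. Not all targets lay on that side. The kinase gene sgk1 reached 113 RPM against 12.3 RPM (ratio 9.13, 6.38 to 13.5), the metallothionein gene mt2 was 4.34-fold higher (4.12 to 4.57), and cebpb, at 378 RPM against 375 RPM, had a ratio of 1.01 (0.929 to 1.09). The receptor gene nr3c1 itself had 2 tags in each library.

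**Figure D4:**
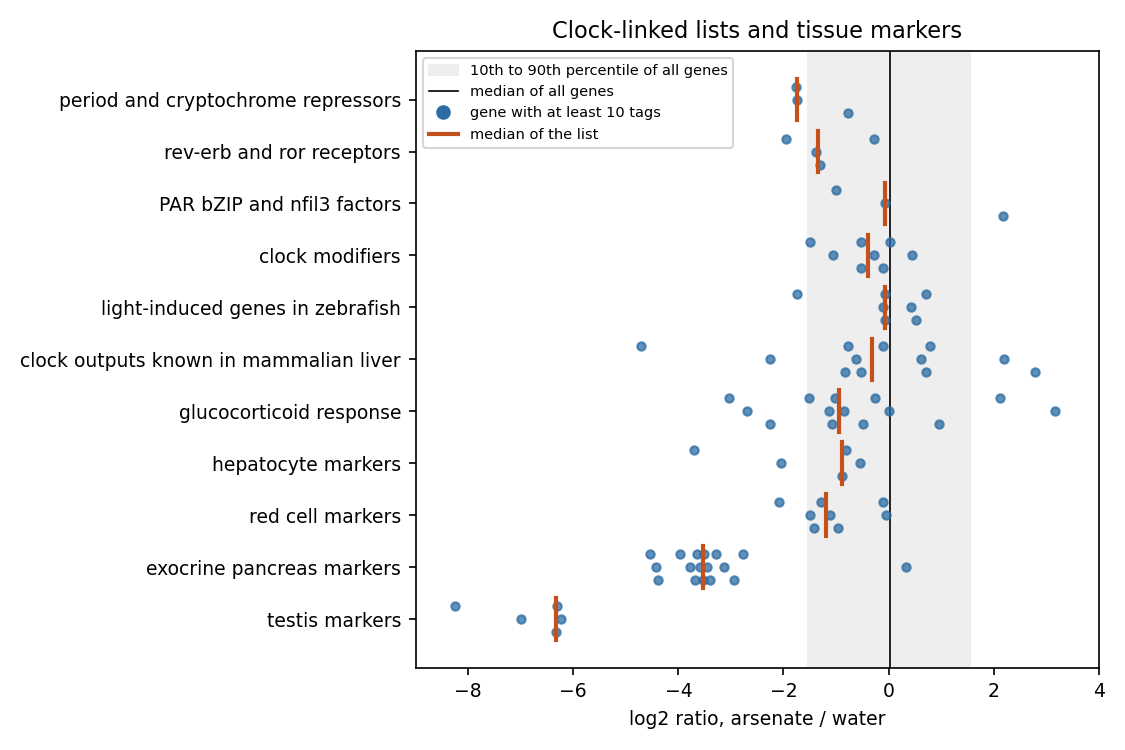
Log2 ratio of arsenate over water for each gene with at least 10 tags (blue) in clock-linked lists and tissue marker lists, with the median of each list as an orange bar. The grey band spans the 10th to 90th percentile of all genes. Medians are -1.75 for period and cryptochrome genes, -1.34 for Rev-erb and ROR genes and -0.06 for PAR bZIP and nfil3 genes. They are -0.40 for clock modifiers, -0.06 for light-responsive genes, -0.31 for clock outputs and -0.94 for glucocorticoid response genes. Among tissue markers they are -0.89 for hepatocytes, -1.20 for red cells, -3.53 for exocrine pancreas and -6.32 for testis.

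Markers of other tissues also differed between the libraries, and their counts stand beside 14.4% lower and 15.6% higher over all genes. Exocrine pancreas markers were lower in the arsenate library for 16 of 17 with a row, and their sum took 0.327% of tags against 3.91%, led by prss59.1 and cela1.6. Testis markers were lower for 5 of 5, with a summed 1.58 RPM against 310 RPM, led by insl3 and sycp1, and cimap1b at 0 tags in the arsenate library. Intestinal markers were lower for 3 of 5 tested, at 259 RPM against 481 RPM, while apoa4b.2 and tm4sf4, the most abundant of them, had ratios of 0.580 and 0.960 and slc15a1b was at 0 in both. Red cell markers were lower for 5 of 8 tested, at 394 RPM against 537 RPM, although hbba1 and ba1l had ratios of 0.973 and 0.927. Hepatocyte markers were present in both libraries, and of 5 tested 2 were lower and 3 neither. Their sum was 37852 RPM against 122635 RPM, of which fabp10a alone made 23450.5 RPM and 96574.6 RPM. The ratio was 0.243 for fabp10a, 0.539 for ahsg1, 0.570 for apoa2 and 0.684 for serpina1, and rbp4 had 1 tag against 11. Macrophage and neutrophil markers were at 409 RPM against 548 RPM, with 2 of 7 tested higher, 2 lower and a median log2 ratio of 0.70. The sum was led by lgmn, 1.69-fold higher, and cd74b, 6.04-fold lower, and the markers called higher were lyz (29 and 2 tags) and mmp9 (44 and 11 tags). Ovary markers summed to 1.36 RPM against 4.63 RPM, with zp3b at 6 and 5 tags, ddx4 at 0 and 4, and gdf9 and zp3 at 0 in both. The part of these tissues in the clock gene levels was not tested. In whole tissue, fewer cells of a type and less RNA per cell cannot be told apart. With the pancreas, testis, ovary, intestine and red cell markers removed from the totals, the ratio of RPM + 1 was 0.296 for per1b, 0.380 for nr1d1 and 3.47 for nfil3, against 0.307, 0.394 and 3.59. This step changes the scale of all genes alike. It takes out no clock gene tags from those tissues, so it does not address their part.

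The share of higher genes among all calls was 52.1%, and 63.3% when the libraries were scaled without their 10 most abundant genes, a scaling that shifted the median of all genes up by 0.22 (log2). Under that scaling the ratios of RPM + 1 were 0.354 for per1b, 0.455 for nr1d1 and 4.11 for nfil3, and all 3 calls held.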

How the data were processed

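Each library came as a table of 17991 transcripts whose values the authors deposited as tag numbers scaled to a common total, which is RPM (the file headers say TPM), since each column sums to 1000000 with no length scaling. Tags were recovered as whole multiples of the value of 1 tag (100% of values within 0.01 tags), and blanks were taken as 0. The library protocol was the standard SOLiD one, per the labels' protocols. Mapping tool, reference and genome build are not stated there, so no coordinates are reported. Promoter and protein sequences were not at hand, so none is reported. The planned motif counts and comparison of PER proteins were therefore not run. Of 10556 rows with an accession, 9463 matched a symbol in a RefSeq table of assembly GRCz12tu, used for names and neighbours only, and rows sharing a symbol were summed. Other rows were kept under their accession or record number and count as genes, also in the shares over all genes. Whether some of them repeat a named gene was not tested.

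With 1 library per group no test across fish was possible, and calls rest on fold size. Ratio intervals came from exact Clopper-Pearson limits on the fraction of a gene's tags found in the arsenate library. Log2 ratios used 0.5 added tags, and 3 tags were the limit for a count of 0. Intervals and limits cover counting error only, and PCR copies are not independent molecules.

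The members, lists, phases and the rule for named genes were chosen with earlier results of these data known. Named were all members, other core clock genes with at least 10 tags, members of the further lists past the rule or among the 3 with the most tags, and the 2 markers of each list with the most tags. A gene outside this rule is said to be so where its value is given, or is named to account for a list. Scaling by DESeq2 1.42.0 size factors, by TMM in edgeR 4.0.16 and by totals without the most abundant genes was tried, as were other pseudocounts, tag minimums and folds, the row with the most tags in place of the sum, an exact binomial test of the tags, and totals without markers. Work was done in Python 3.11.15 with scipy 1.17.1 and in R 4.3.3, and the steps were tested on simulated data.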

Additional observations from a re-analysis of the deposited data

How the results depend on the processing

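None of the 12 alternatives could turn the direction of the ratios of per1b, nr1d1 and nfil3, so its holding is no check. The scalings shifted all log2 ratios by 0.22 at most, and these genes lie at -1.76, -1.39 and 2.18. Folds, tag minimums, pseudocounts and the binomial test leave the order of the 2 levels as it is. The choice of row changes nothing, since each of these genes has 1 row. Leaving the binomial test aside, the call of per1b held under every alternative, that of nr1d1 under all but 3-fold and that of nfil3 under all but the minimum of 50 tags. The removal of tissue markers from the totals was chosen after seeing the data. The exact binomial test on recovered tags, which compares the libraries and not the conditions, called 1084 genes higher and 1065 lower. Since the members were chosen from the same tags, nothing is read from it for them. Counts moved with the strictness of the rule. At 3-fold, 1 member (per1b), 1 morning gene and 1 core clock gene were lower, with 533 of all genes higher and 536 lower. With at least 50 tags, nfil3 was not tested, so that 0 members, 0 evening genes and 0 core clock genes were higher, 3 morning genes and 3 core clock genes were lower, and 713 and 565 of all genes were called. With at least 1 tag, 1 evening gene (bmal2) was lower, beside 1425 of all genes higher and 1560 lower. The evening median then turned to -0.32 from 0.93. The numbers of genes tested at these minimums are not given here, so nothing is read from the counts. All genes gave 2176 and 1913 at 1.5-fold and 580 and 610 with a pseudocount of 5, where nr1d2a lost its call at a ratio of 0.637. The median of light-responsive genes turned to 0.023 with TMM scaling and 0.15 without the 10 most abundant genes. Other minimums, folds and pseudocounts change the rule itself and so its counts by construction. The medians that turned did so by construction too. A scaling shifts all log2 ratios alike, by 0.084 with TMM and 0.22 without the 10 most abundant genes. The minimum of 1 tag lets genes with few tags into the evening median. Low tag counts limit per1a, per2, per3, clocka and the other activators, which no alternative can address. Why these counts were low was not tested. No paired analysis was possible because each group is 1 library.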

Other observations

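Over the 2 libraries, the genes nearest to tefa in log2(RPM + 1), outside the lists, were id3, tm9sf4 and ndufb9, at distances of 0.00994, 0.0116 and 0.0365. The genes nearest to per1b were pgam2, cox7a1 and gcga, at distances of 0.156, 0.173 and 0.179 among 5788 genes compared. With 2 libraries such likeness describes 2 levels and no more.

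In the RefSeq table a gene next to nfil3 is auh, which stood at 5.20 RPM (23 tags) after arsenate and 1.54 RPM (4 tags) in water. A gene next to per2 is itm2cb, at 1.81 RPM (8 tags) and 5.01 RPM (13 tags). Both were singled out after their values were seen. The remaining neighbours with at least 10 tags were pcolcea by per1a, vamp3 by per3 and tmem165 by clocka. Their ratios of RPM + 1 were 0.772, 0.876 and 1.27, all within 2-fold. They too lie outside the rule for named genes. The gene per1b overlaps dthd1 there, and dthd1 was not analysed here.

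Markers of the pineal gland and photoreceptors, the light-sensing cells that hold strong clocks in fish, were mostly at or near 0. Of 5 with a row, arr3a and sagb had no tags in either library, exorh had 3 and 0, and gnat2 had 1 and 6. The arrestin gene saga had 54 tags after arsenate and 0 in water, and the lower limit of the interval of its ratio was 8.29.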
